A study of Mus musculus with 7 samples.

Results

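The ERβ binding sites that lie inside repeat sequence of the mouse genome were examined in chromatin immunoprecipitation sequencing (ChIP-seq) of whole ovary. ERβ is the estrogen receptor encoded by Esr2, and in ChIP-seq the DNA fragments that an antibody holds are sequenced and compared with sheared chromatin that did not pass the antibody (input). The libraries were 3 ERβ ChIP replicates (ERB_ChIP) and 2 inputs, all from ovaries of female C57BL/6J mice with their endogenous ERβ, no deletion and no treatment, and without synchronising the estrous cycle. The antibody was PPZ0506. Each ChIP replicate pooled the ovaries of several mice, so a value is an average over animals, follicle stages and cell types, and fewer cells that hold the receptor cannot be told apart from less receptor per cell. The age of the mice is not in the labels. The ERβ knockout ChIP samples were not analysed here. A binding site was a 200-bp window at a local maximum of the ChIP signal, whose mean signal reached 2 and exceeded both 4 times the input mean there and 4 times that library's own mean in the 10 kb around it. It had to be found in at least 2 of the 3 ChIP replicates. A site counted as inside repeat sequence when at least 50% of its 200 bp were soft-masked, that is, in lower case in the mm10 (GRCm38) reference. This gave 242 repeat sites of 4240 sites in all, and the other 3998 are called unmasked sites. Members were therefore selected on their ChIP signal, their fold over input and their masked share, and these are given below as a description.

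ERβ binds DNA as a dimer at the estrogen response element (ERE), a palindrome of a pair of AGGTCA-type half-sites with 3 bases between them. Other nuclear receptors such as NR5A1 and NR5A2 read an extended single half-site, and GATA, AP-1 and FOXO factors, all of them known in granulosa cells of the ovary, read short motifs of their own. Repeats make up a large part of mammalian genomes. Dispersed copies of one ancestral element share their sequence, so any motif the element carried is spread with it, while later mutations make the copies differ. Reads from copies that are still identical cannot be placed at a single position. The soft mask used here also covers short runs (median 29 bp, 34.3% of known bases in all), so a masked base was not taken to be a transposon, and no repeat family was named.

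The sequence of 1 member of each of 7 groups of related repeat sites is shown first, since most of the results below turn on the motif that the copies share. Sequences are from the RefSeq copy of GRCm38 (mm10), plus strand, and capitals mark the motif at the aligned place: an ERE in groups 1, 2, 3, 4 and 9, an NR5A motif in group 5 and a half-site on the other strand in group 8.
Group 1, nearest Meiob, chr17:24799501-24799700: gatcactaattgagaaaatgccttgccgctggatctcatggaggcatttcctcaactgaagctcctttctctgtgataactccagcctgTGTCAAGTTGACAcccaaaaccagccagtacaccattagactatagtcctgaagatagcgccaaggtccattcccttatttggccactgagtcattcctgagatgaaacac
Group 2, nearest Kmo, chr1:175642601-175642800: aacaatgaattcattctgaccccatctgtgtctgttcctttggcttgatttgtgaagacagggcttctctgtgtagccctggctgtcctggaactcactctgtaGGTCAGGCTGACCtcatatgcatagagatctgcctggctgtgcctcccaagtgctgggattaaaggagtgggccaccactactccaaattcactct
Group 3, nearest Lacc1, chr14:76936071-76936270: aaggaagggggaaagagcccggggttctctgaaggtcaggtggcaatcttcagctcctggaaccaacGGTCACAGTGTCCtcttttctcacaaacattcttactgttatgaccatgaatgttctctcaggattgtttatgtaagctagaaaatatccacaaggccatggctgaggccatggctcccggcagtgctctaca
Group 4, nearest AI429214, chr8:37677431-37677630: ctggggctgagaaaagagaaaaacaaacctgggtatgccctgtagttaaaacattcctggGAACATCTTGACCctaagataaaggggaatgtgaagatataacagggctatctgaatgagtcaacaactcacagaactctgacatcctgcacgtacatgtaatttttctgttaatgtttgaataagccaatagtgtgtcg
Group 5, nearest Slc24a5, chr2:125062601-125062800: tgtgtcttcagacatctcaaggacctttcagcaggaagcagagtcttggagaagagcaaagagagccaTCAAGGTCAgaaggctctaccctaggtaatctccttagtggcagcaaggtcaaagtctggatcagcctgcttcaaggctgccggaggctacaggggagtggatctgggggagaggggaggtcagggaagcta
Group 8, nearest Pmp22, chr11:63228351-63228550: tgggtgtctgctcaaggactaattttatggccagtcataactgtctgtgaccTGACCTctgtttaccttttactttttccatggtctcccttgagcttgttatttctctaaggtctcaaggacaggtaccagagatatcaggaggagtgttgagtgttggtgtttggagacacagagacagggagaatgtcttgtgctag
Group 9, nearest Trpc5os, chrX:144399871-144400070: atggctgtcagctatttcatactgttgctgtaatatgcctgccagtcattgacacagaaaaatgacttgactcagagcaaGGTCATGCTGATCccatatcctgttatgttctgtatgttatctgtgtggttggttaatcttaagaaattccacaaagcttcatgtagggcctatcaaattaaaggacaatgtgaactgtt

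A base that differs from the ERE GGTCANNNTGACC is written with the motif base, its position counted from 1 at the 5′ end of the motif as printed, and the base found. In these terms the group 2 member was a perfect ERE. The group 3 member differed by A11T, the group 9 member by C12T, the group 1 member by G1T and C13A, and the group 4 member by G2A and T3A. A member of group 6 is shown because it holds no ERE but a tandem run, whose ATTCC units (GGAAT on the other strand) are in capitals.
Group 6, nearest Ano2, chr6:125876921-125877120: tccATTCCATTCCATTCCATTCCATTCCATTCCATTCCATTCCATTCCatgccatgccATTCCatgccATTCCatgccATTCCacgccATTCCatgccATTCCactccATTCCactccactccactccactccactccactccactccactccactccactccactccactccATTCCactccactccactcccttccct

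Repeat sites were 5.71% of all sites (exact 95% interval 5.03 to 6.45). In the calls of each ChIP replicate taken alone, 179 of 3649 sites (4.91%), 295 of 5020 (5.88%) and 277 of 4896 (5.66%) were repeat sites (SD 0.509 percentage points, n = 3). Of 3616894 tiles of 200 bp in the genome with at least 50% of their bases masked, 236 held the centre of a site (0.00652%), against 4004 of 9179641 other tiles (0.0436%). Masked tiles made up 28.3% of all tiles, so their share of the sites was below their share of the genome in each replicate as well as in the joint set. Intervals given for sites and copies cover counting error only, and they treat as independent sites that may be copies of one repeat.

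The masked share of a site ran from 0 to 100%. No base was masked in 2012 sites (47.5%, against 22.0% of all tiles), and every base was masked in 14 sites (0.330%, against 9.88% of tiles). The 14 fully masked sites included 8 of group 4. The 50% line divided a continuous range, with 44 sites from 50 to under 55% masked and 40 sites from 45 to under 50%. Just inside it lay, among others, a site nearest Gja1 (50% masked; signal 3.76, 3.26 and 4.50 in ChIP replicates 1, 2 and 3), sites in introns of Baz1a and Gpbp1 (50%; mean fold 6.35 and 5.87) and a site in Serpine2 (50.5%; mean fold 5.16). Just outside lay sites nearest Sephs2, Fank1 and Spindoc (each 49.5%, mean fold 4.11, 8.0 and 6.19). The sites nearest Celf2 and Unc13b lay there too (each 49.0%, mean fold 5.34 and 7.45). Fold here is the ChIP signal in the 200 bp over the mean of both inputs, with the input floored at its genome mean, averaged over the 3 ChIP replicates.

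**Figure D1:**
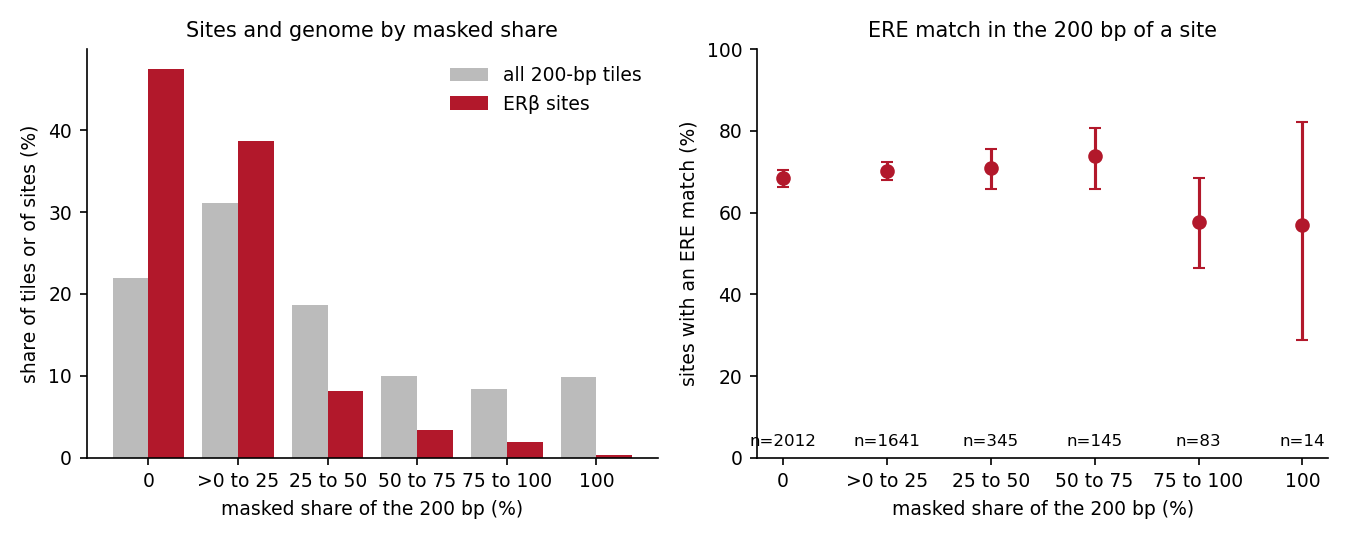
Left, bars give the percentage of all 200-bp tiles of the genome and of the 4240 sites in each class of masked share. Right, points give the percentage of sites in each class with an ERE match of at most 2 mismatches and lines the exact 95% interval. Sites fell off faster than tiles as the masked share grew, from 47.5% of sites at 0 to 0.330% at 100%, while the ERE share lay between 57.1% and 73.8% in every class.

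The 12 repeat sites with the highest mean fold among those found in all 3 replicates show what the strongest members looked like. The first, 15.9 kb upstream of the start of Mctp1, a membrane protein with calcium-binding C2 domains, had signals of 10.5, 15.8 and 16.9 in ChIP replicates 1, 2 and 3, against 0.440 and 0.280 in Input replicates 1 and 2 (mean fold 39.1, SD 9.27). The site 93.6 kb downstream of the start of Sh3bgrl2 had 10.8, 10.3 and 13.1 against inputs of 0.290 and 0.50. At 5.42 kb upstream of the start of Slc24a5, a cation exchanger of pigment cells, the signals were 12.1, 15.7 and 14.0 against 0.743 and 0.425. At these sites every ChIP value was far above both inputs, and the ChIP replicates differed by less than a factor of 2. Values above both inputs follow from the calling rule, since all 3 replicates called these sites.

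At 50.9 kb upstream of the start of Rhobtb1, signal was 10.4, 15.4 and 12.9 (inputs 0.432 and 0.650). At 99.9 kb downstream of the start of Lacc1, an enzyme of macrophage metabolism, it was 9.28, 11.8 and 13.4 (0.602 and 0.450). Others lay in introns of Spag1 (mean fold 21.2), which helps to assemble dynein arms, Tax1bp1 (19.5), an autophagy receptor, and Nploc4 (16.9), a cofactor of the p97 ATPase. Between genes lay the site nearest Cdh8 (17.2), a cadherin, 1400 kb from its start. So did the site nearest Ftmt (16.7), a mitochondrial ferritin, at 535 kb. The nearest gene serves as a label of position, and a link between site and gene was not tested. A different picture came from 2 of the 12. The site nearest Arid1b, a subunit of BAF chromatin remodelling complexes, lay 369 kb from the start of that gene. It read 5.36, 48.1 and 27.5 in the ChIP replicates against inputs of 0.481 and 1.86. The site nearest the predicted gene Gm8882, 99.6 kb from its start, read 2.06, 20.4 and 12.1 against 0.170 and 0.640. Both belong to group 6, the tandem group described below, and in both the first ChIP replicate was the lowest.

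**Figure D2:**
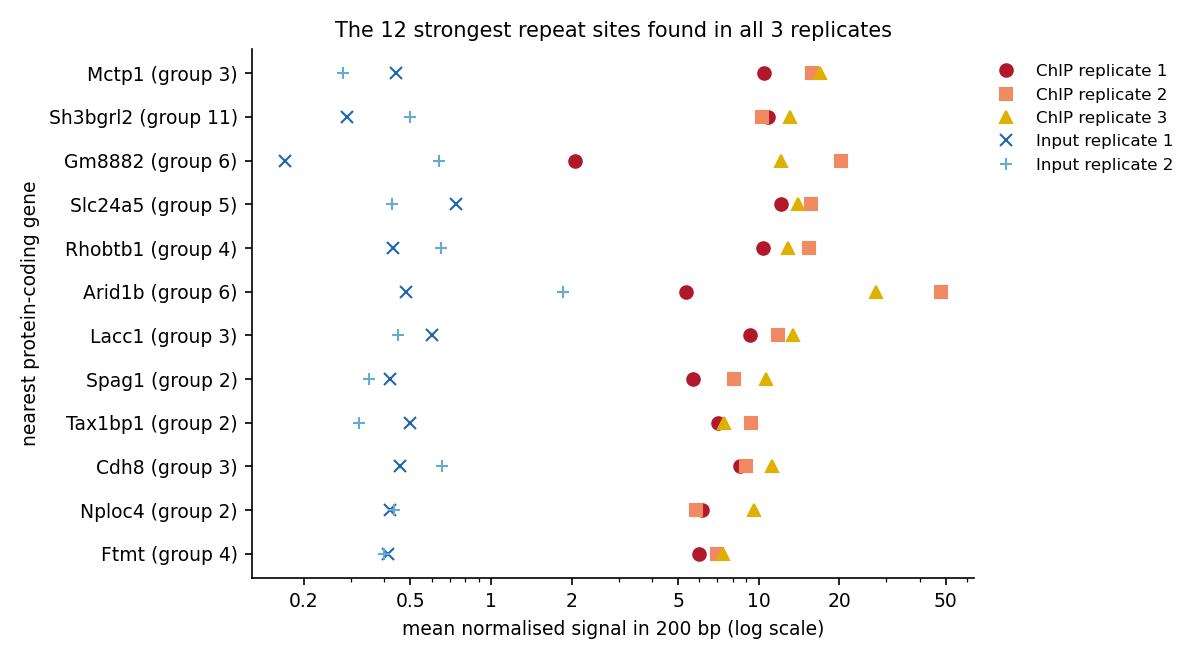
Mean normalised signal (log axis) in the 200 bp of each of the 12 strongest repeat sites found in all 3 replicates, with 1 symbol per library and the group of related sites in brackets. ChIP symbols lie to the right of both inputs in every row, as the calling rule requires. Only the rows of Gm8882 and Arid1b spread over more than a factor of 5 between ChIP replicates.

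Of the 12, 3 belong to group 3, at Mctp1, Lacc1 and Cdh8, and their EREs are set side by side because they lay on different chromosomes in nearly the same sequence. At Mctp1 and Cdh8 the copy runs in the other direction, so T3A there and A11T at Lacc1 are the same change. Capitals mark the ERE.
Mctp1, chr13:76368565-76368625: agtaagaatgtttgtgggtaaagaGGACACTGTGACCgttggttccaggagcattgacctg
Cdh8, chr8:98012419-98012479: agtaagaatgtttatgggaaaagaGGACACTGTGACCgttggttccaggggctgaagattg
Lacc1, chr14:76936114-76936174: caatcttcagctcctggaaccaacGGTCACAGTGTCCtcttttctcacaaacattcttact
The 2 sites of group 2 shown next, in Spag1 (T3C) and Tax1bp1 (G2A and T3C), likewise share the bases before the ERE in part.
Spag1, chr15:36230306-36230366: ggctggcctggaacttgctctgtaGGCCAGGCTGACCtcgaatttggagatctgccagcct
Tax1bp1, chr6:52746183-52746243: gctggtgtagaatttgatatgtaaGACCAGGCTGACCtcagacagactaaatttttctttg

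Over all 242 repeat sites, signal ranged from 0.320 to 12.8 with a median of 2.78 in ChIP replicate 1, from 0.546 to 48.1 with a median of 3.74 in replicate 2, and from 0.760 to 27.5 with a median of 3.68 in replicate 3. Input medians were 0.539 and 0.475. Unmasked sites had higher medians in every library, at 3.66, 4.55 and 4.50 for the ChIP replicates and 0.674 and 0.560 for the inputs. Because these libraries chose the sites, strength was compared in a held-out replicate. At sites called in both other replicates, the median log2 fold over input in repeat sites was 2.46 in replicate 1 (216 sites), 3.02 in replicate 2 (160) and 2.94 in replicate 3 (160). In unmasked sites it was 2.58, 3.08 and 3.00. The difference, repeat minus unmasked, was -0.13, -0.06 and -0.05 (mean -0.08, SD 0.04, n = 3), lower in 3 of 3 replicates. An exact sign-flip permutation test over the 3 replicates gave a two-sided p of 0.25, which is the smallest it can give. The medians themselves varied more between replicates (SD 0.30 in repeat and 0.27 in unmasked sites). Both classes shared that shift, and a difference taken within each replicate leaves it out. The inputs were not held out. With a height of at least 4 required of a site the difference was 0.02.

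Repeat sites were found in all 3 replicates in 150 cases (62.0%), unmasked sites in 2761 (69.1%). A further 66 repeat sites were found in replicates 2 and 3, 17 in replicates 1 and 2, and 9 in replicates 1 and 3. In the held-out replicate, 70.8%, 94.4% and 90.6% of the repeat sites were over 4-fold in replicates 1, 2 and 3, against 78.1%, 94.8% and 91.0% of the unmasked sites. The mean profile was 220 bp wide at 50% of its height in repeat sites without tandem repeats and in unmasked sites alike, in each of the 3 replicates.

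How well reads can be placed was read from the reference. In 182 repeat sites (75.2%) every stretch of 75 bases, the read length, occurred once in the genome, against 98.8% of unmasked sites. In 5 repeat sites fewer than 50% of these stretches were unique, and the lowest share was 34.9%. Over shorter stretches of 24 bases, a median of 41.0% of those in a repeat site occurred more than once in the genome, against 0 in unmasked sites. The authors kept uniquely mapped reads, so copies still identical to others were not observed. The input signal was 0.520 in repeat and 0.622 in unmasked sites (medians of the mean of both inputs).

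**Figure D3:**
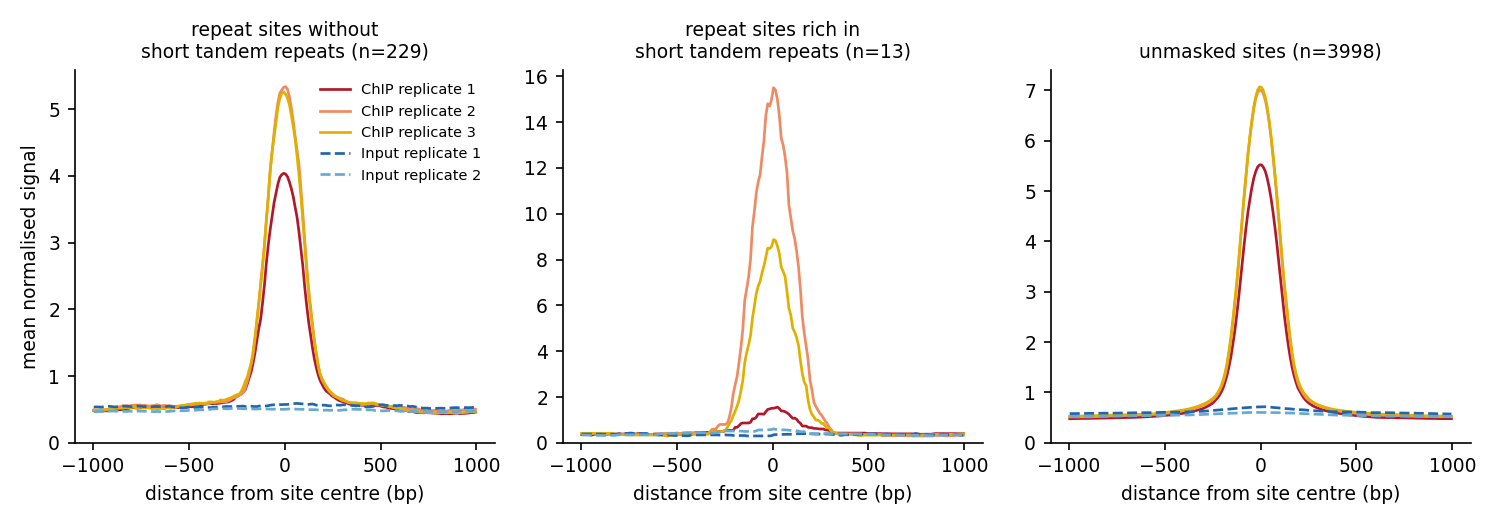
Mean normalised signal by distance from the site centre (bp), with 1 line per library, for 229 repeat sites without tandem repeats, 13 repeat sites rich in them and 3998 unmasked sites; vertical axes differ. ChIP replicate 1 peaked at 4.04 against 5.34 and 5.26 in the first class, at 1.56 against 15.5 and 8.87 in the second, and at 5.52 against 7.0 and 7.07 in the third.

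Motifs were not part of the rule. An ERE (10 fixed bases, of which at most 2 were allowed to differ) was present in 163 of the 242 repeat sites (67.4%, exact 95% interval 61.1 to 73.2) and in 2774 unmasked sites (69.4%). It was present in 6.51% of masked and 6.74% of unmasked tiles of the genome. In the replicates' own calls, repeat minus unmasked was 2.98, -3.76 and -0.847 percentage points, so the sign differed between replicates (exact sign-flip permutation p = 0.750, two-sided). A perfect ERE was found in 12 repeat sites (4.96%, against 6.80%) and 1 with at most 1 mismatch in 88 (36.4%, against 34.0%). The first was lower than in unmasked sites, and the second higher, in 3 of 3 replicates (exact sign-flip permutation p = 0.25 each, the smallest possible). At most 2 mismatches left 1.79 percentage points more in repeat sites once the 13 tandem sites were taken out.

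The ERE itself was masked in most of them. Of the 163 best matches in repeat sites, 110 (67.5%) were masked in every base, 29 in part, and 24 not at all. The median distance from the ERE to the site centre was 14.5 bp in repeat and 15.5 bp in unmasked sites, and 92.6% and 92.1% lay within 50 bp. Repeat sites with an ERE had a higher median log2 fold in the held-out replicate than those without, by 0.23, 0.22 and 0.13 (mean 0.19, SD 0.05). In unmasked sites this difference was 0.20, 0.22 and 0.34 (mean 0.25, SD 0.08). Each was above 0 in 3 of 3 replicates (exact sign-flip permutation p = 0.25 for each class, the smallest it can give). With the tandem sites taken out, the median without an ERE was 2.47, 2.88 and 2.79 in replicates 1, 2 and 3, in place of 2.30, 2.88 and 2.83, against 2.54, 3.10 and 2.97 with one. The difference was then smaller in replicate 1, the same in replicate 2 and larger in replicate 3.

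Seen from the genome, the share of EREs that held a site was lower in masked sequence than elsewhere. Of 298 perfect EREs whose window was masked, 12 had a site within 100 bp (4.03%, exact 95% interval 2.10 to 6.93), against 272 of 2059 others (13.2%, 11.8 to 14.7). With 1 mismatch the shares were 0.367% and 2.31%, and with 2 mismatches 0.0400% and 0.307%. Restricting the count to places with an input signal of at least 0.2 gave 4.30% and 13.5%, 0.804% and 2.38%, and 0.0535% and 0.317%. The ratio of the 2 shares then narrowed at each number of mismatches, and the intervals of the 2 classes did not overlap in any of these pairs. Of the masked tiles 8.14% had no signal in either input, against 0.949% of the others, and the part of unplaced reads in the remaining gap was not tested.

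The GATA motif (AGATAA or TGATAA) was in 94 repeat sites (38.8%, exact 95% interval 32.7 to 45.3) and in 28.5% of unmasked sites, with 22.8% and 24.6% in the respective tiles. The difference was 10.1, 7.85 and 9.31 percentage points in the 3 replicates' own calls (SD 1.16, n = 3). AP-1 (TGAGTCA or TGACTCA) was in 26 sites (10.7%, against 6.40%; tiles 1.79% and 3.62%) and NR5A (TCAAGGTCA or CCAAGGTCA) in 24 (9.92%, against 7.10%; tiles 0.520% and 0.761%). Both were higher in repeat sites in 3 of 3 replicates. The exact sign-flip permutation p was 0.25 for GATA, AP-1 and NR5A, the smallest the 3 replicates can give. An NR5A motif that shared no base with an ERE match was in 7.85% of repeat and 4.93% of unmasked sites.

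FOXO (TGTTTAC) was in 10 repeat sites (4.13%, against 5.0%) and the half-site AGGTCA in 131 (54.1%, against 59.5%), with signs that differed between replicates. The half-site overlaps both the ERE and NR5A. None of these motifs was found in 22 repeat sites (9.09%) and in 9.15% of unmasked sites. With an 8-fold minimum over input in place of 4-fold, the GATA difference was -0.437 percentage points. The motifs were unevenly spread over groups of related sites. GATA was in 45 of 59 sites of groups 1 and 4 (76.3%) and in 49 of the other 183 (26.8%). AP-1 was in 17 of 26 sites of groups 4 and 9 and in 4.17% elsewhere, NR5A in 21 of 56 sites of groups 2 and 5 and in 1.61% elsewhere, and FOXO in 6 of 9 sites of group 8 and in 1.72% elsewhere. These groups were picked after their counts were seen.

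Most repeat sites resembled one another. By blastn, with at least 80 bp aligned at 70% identity or more, 189 of the 242 (78.1%) fell into 11 groups of at least 5 related sites, 6 into 3 pairs, and 47 (19.4%) had no relative among the sites. Sites were joined in chains, so the members of a group need not all align with one another. Of the 47, 27 held an ERE (57.4%). Taking 1 site per group left 61 sites, 52.5% with an ERE. The number of independent sequences behind the 242 sites was therefore much smaller than the number of sites. Groups are numbered by size, and groups 1, 2 and 3, with 102 sites, held an ERE in 99 of them.

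**Figure D4:**
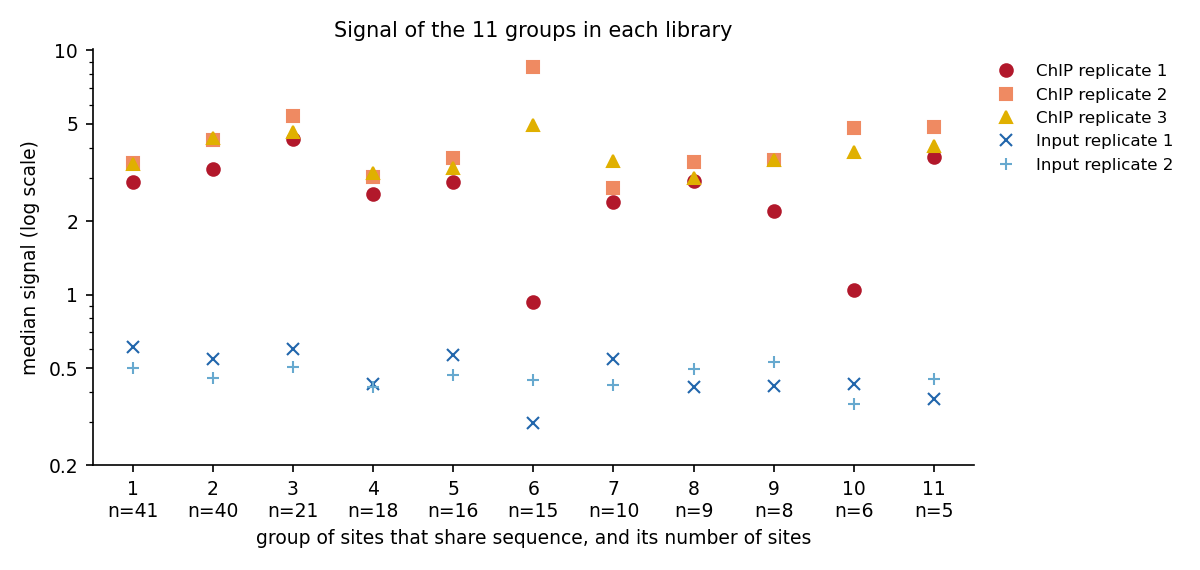
Median signal (log axis) over the sites of each of the 11 groups, with 1 symbol per library and the number of sites under each group. In groups 6 and 10, ChIP replicate 1 lies far below ChIP replicates 2 and 3 (0.930 against 8.54 and 4.94 in group 6), and in the other groups the 3 ChIP medians lie close together.

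To see how many relatives of each group carried no site, 1 member of each group was aligned to the whole genome at the same length and identity. Not every site of a group aligned to the member used, counting that member itself: 32 of 41 did in group 1, 25 of 40 in group 2 and 13 of 18 in group 4. The motif in question was the one held at the same aligned place by most of the members that aligned. In group 2 that was 19 of the 40 sites, and in group 4 it was 8 of the 18. Members and place were therefore not chosen independently, and a low share of sites among copies with many mismatches is partly built in. The copies without a site had no part in that choice, and their signal is therefore given as well. A copy was said to hold a site when a site centre, in masked sequence or not, lay within 100 bp of its motif.

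Group 3 was the strongest of the ERE groups, with 21 sites on 10 chromosomes and a median mean fold of 9.42. Signal in its members ran from 0.772 to 10.5 (median 4.32) in ChIP replicate 1, from 1.46 to 15.8 (5.39) in replicate 2 and from 2.06 to 16.9 (4.63) in replicate 3, against at most 0.885 and 0.783 in the inputs. All 21 held an ERE at the same aligned place, 20 of them with 1 mismatch. The genome held only 212 copies, and 29 of these had a site (13.7%), 8 of them outside the repeat class because less than 50% of their window was masked. Of 101 copies with 1 mismatch 28 had a site (27.7%, exact 95% interval 19.3 to 37.5), of 58 with 2 mismatches 1 (1.72%, 0.0436 to 9.24), and of 19 with 3 mismatches 0 (up to 17.6). The intervals at 1 and 2 mismatches did not overlap.

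In the copies of group 3 with 1 mismatch, mean ChIP signal was 1.87, 2.44 and 2.46 in the replicates and mean input 0.413 and 0.411, a ratio of 4.53, 5.92 and 5.98. With 2 mismatches the ratio was 1.46, 1.48 and 1.55. Among copies without a site it was 1.79, 2.28 and 2.37 with 1 mismatch (73 copies) and 1.39, 1.45 and 1.49 with 2 (57 copies), higher with 1 in 3 of 3 replicates. The fall did not go on, since with 3 mismatches (19 copies) it was 1.60, 1.99 and 1.56. These values were above those with 2 mismatches and below those with 1 in 3 of 3 replicates. By sequence, GGTCACAGTGTCC (A11T) was at 71 copies, of which 21 had a site (29.6%), and GGTCACAGTGCCC (A11C) at 10, of which 4 had one.

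Group 9, with 8 sites, carried the most complete EREs: 4 were perfect, 4 had 1 mismatch, and 6 of the 8 also held AP-1. Its signals were modest, with ChIP medians of 2.20, 3.57 and 3.57, and the strongest member, nearest Arid3b, had 2.72, 3.82 and 3.69. Of 685 copies 17 had a site, and 9 of those were in windows masked over less than 50%. At 0, 1, 2 and 3 mismatches the share with a site was 7.63% (10 of 131), 2.43% (5 of 206), 1.75% (2 of 114) and 0% (0 of 60, exact upper limit 5.96%). The shares fell with each mismatch, but neighbouring intervals overlapped. Without the copies that had a site, the ratio of ChIP to input was 1.33, 1.43 and 1.3 at 0 mismatches, 1.09, 1.11 and 1.12 at 1, and 0.939, 1.00 and 0.934 at 3. The perfect ERE GGTCATGCTGACC alone was at 92 copies, and 6 of them had a site.

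Group 1, the largest, had 41 sites on 20 chromosomes, all with an ERE (18 with 1 mismatch and 23 with 2) and 30 with a GATA motif. Signal ran from 1.1 to 11.8 (median 2.88), from 2.07 to 15.4 (3.45) and from 0.760 to 13.2 (3.41) in ChIP replicates 1, 2 and 3. The strongest member lay in intron 2 of Anapc7, a subunit of the anaphase-promoting complex, with signals of 7.85, 10.2 and 8.41. The genome held 26273 copies, and 42 had a site (0.160%). The common form TGTCAAGTTGACA (G1T, C13A) was at 16598 copies with 21 sites (0.127%), and GGTCAAGTTGACA, which lacks the first change, was at 219 copies with 9 sites (4.11%). Over all copies the share was 3.47% with 1 mismatch (12 of 346, exact 95% interval 1.80 to 5.98), 0.137% with 2 (26 of 18918, 0.0898 to 0.201) and 0% with 3 (0 of 4295, up to 0.0859). None of these 3 intervals overlapped another.

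Among copies of group 1 without a site, the ChIP to input ratio was 1.14, 1.16 and 1.29 with 1 mismatch, 0.985, 1.04 and 1.07 with 2 and 0.95, 0.983 and 1.01 with 3, falling in that order in each of the 3 replicates. The absolute number of sites went the other way, since 26 of the 38 sites with 1 or 2 mismatches were at the far more frequent copies with 2.

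Group 2 had 40 sites on 18 chromosomes, 37 with an ERE (3 perfect, 18 with 1 mismatch) and 9 with NR5A. Signal ran from 0.811 to 8.07 (median 3.28), from 1.74 to 10.8 (4.28) and from 1.33 to 12.6 (4.39). Its strongest member was the site in intron 16 of Spag1, with 5.70, 8.11 and 10.7. Of the 40 sites, 25 aligned to the member searched. That member had the most copies of any group, 217709, of which 24 had a site (0.0110%). The share was 9.09% at a perfect ERE (3 of 33, exact 95% interval 1.92 to 24.3), 0.771% with 1 mismatch (8 of 1037), 0.0435% with 2 (7 of 16095) and 0.00296% with 3 (4 of 134988). Each of these fell below the interval of the one before. The ratio of ChIP to input in the 30 perfect copies without a site was 1.76, 1.97 and 1.74, against 1.01, 1.05 and 1.03 with 1 mismatch and 0.935, 0.946 and 0.957 with 3. GACCAGGCTGACC (G2A, T3C) was at 4975 copies and had 2 sites, and GGCCAGGCTGACC (T3C) was at 110 copies and had 3.

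**Figure D5:**
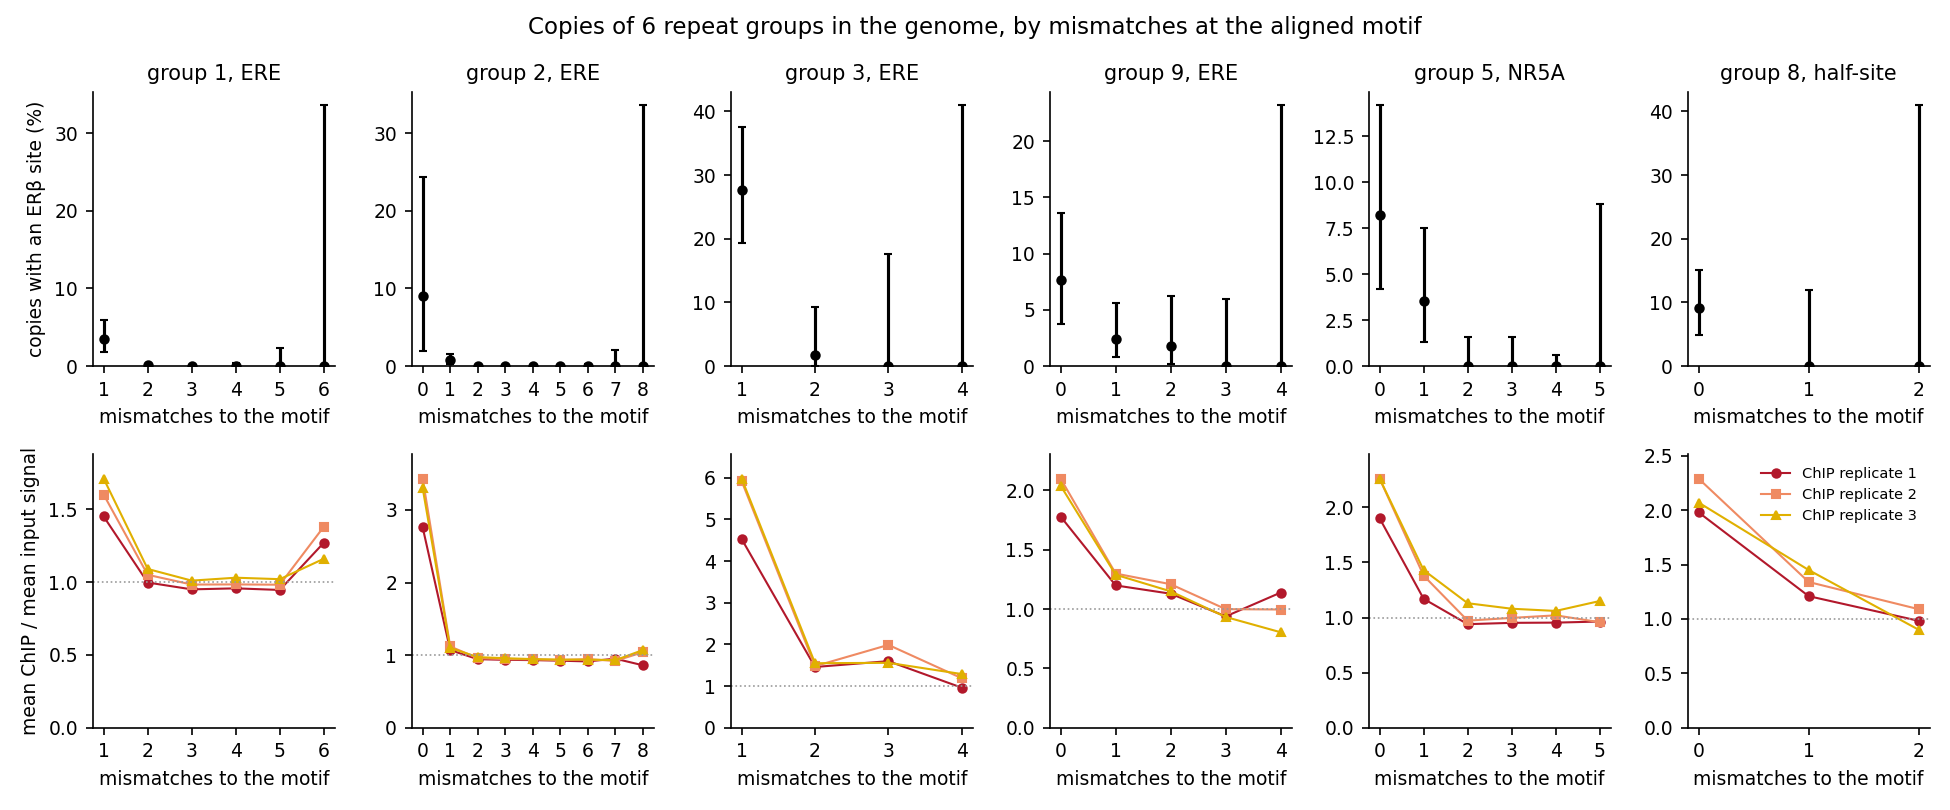
For the copies of 6 groups in the genome, by number of mismatches at the aligned motif: top, the percentage of copies with a site (points) and its exact 95% interval (lines); bottom, mean ChIP over mean input signal in each ChIP replicate, with a dotted line at 1. Classes under 5 copies are left out. In each panel the class with the fewest mismatches is the highest for the share and for 3 of 3 replicates, for example 27.7% in group 3. The lower panels include the copies with a site, which were called on this signal. Without these, the ratio in group 8 is 1.38 with the half-site intact and 1.45 with 1 mismatch in ChIP replicate 3. In group 1 it is then 1.14 and 1.16 with 1 mismatch in replicates 1 and 2, against 1.27 and 1.38 in the 9 copies with 6. Groups 4, 7 and 11, which are not drawn, did not have their highest share of copies with a site at the fewest mismatches.

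In groups 5, 8 and 11 the motif at the aligned place was NR5A or a half-site, and few sites held an ERE. The half-site was not particular to them, being in 20 of 21 sites of group 3 and 32 of 40 of group 2. Group 5 had 16 sites, 1 with an ERE, 12 with NR5A and all 16 with a half-site, and included the site near Slc24a5. Signal ran from 1.55 to 12.1 (median 2.90), from 2.66 to 15.7 (3.63) and from 2.27 to 14.0 (3.31) in the ChIP replicates. Of its 1757 copies 17 had a site. TCAAGGTCA was intact in 134 copies, and 11 had a site (8.21%, exact 95% interval 4.17 to 14.2). With 1 mismatch 6 of 170 had one (3.53%), and with 2 mismatches 0 of 227 (up to 1.61%). The ChIP to input ratio in copies without a site was 1.17, 1.37 and 1.37 with the motif intact, and 0.989, 1.11 and 1.16 with 1 mismatch.

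Group 8 had 9 sites, all with a half-site at the same aligned place, 7 with GATA, 6 with FOXO and 1 with an ERE. Signals of its members ran from 2.54 to 3.8 in replicate 1, from 2.45 to 4.34 in replicate 2 and, more widely, from 0.966 to 7.02 in replicate 3. The strongest lay 95.4 kb from the start of Pmp22, a myelin protein. Of 142 copies with TGACCT, the half-site read on the other strand, 13 had a site (9.15%, exact 95% interval 4.97 to 15.1), and of 29 copies with 1 mismatch 0 had one (up to 11.9%). These intervals overlapped. In group 11, with 5 sites and the site near Sh3bgrl2, the same half-site was in 283 copies with 4 sites (1.41%), and 1 of 61 copies with 1 mismatch had a site (1.64%). These shares were close. In the copies of group 11 without a site the ratio was 1.18, 1.19 and 1.17 with the half-site intact and 1.33, 1.17 and 1.15 with 1 mismatch.

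Group 4 had 18 sites, 15 with a 2-mismatch ERE, 15 with GATA and 11 with AP-1, and 8 of the fully masked sites belonged to it. Its ChIP medians were 2.57, 3.03 and 3.16. Of 707 copies 13 had a site (1.84%), and here the share hardly moved with the ERE, at 2.18% with 2 mismatches (8 of 367), 1.93% with 3 (5 of 259) and 0% with 1 (0 of 7, up to 41.0%). Group 7 had 10 sites, 6 with an ERE. Its strongest member, nearest Lekr1, read 4.02, 4.36 and 7.90, and 8 of its 10725 copies had a site. In contrast to groups 1, 2, 3 and 9, no site was found at the 71 copies with 1 mismatch (exact upper limit 5.06%), against 6 of 533 with 2 (1.13%, 0.414 to 2.43), and these intervals overlapped. The ChIP to input ratio of the copies without a site was 1.45, 1.57 and 1.53 with 1 mismatch and 1.07, 1.12 and 1.08 with 2. All told, 183 sites lay at copies of the 11 groups, of which 149 were repeat sites and 34 were unmasked sites.

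Group 6 was marked by short tandem repeats and by low signal in ChIP replicate 1. Of its 15 sites 13 were rich in short tandem repeats (at least 50 bp in runs with a period of at most 6 bp) and held 6 to 30 GGAAT units on one strand. None of the 15 held an ERE or a half-site. In the 13, signal was at most 5.36 with a median of 1.00 in ChIP replicate 1, whereas the medians were 8.62 in replicate 2 and 5.12 in replicate 3, and 0.297 and 0.446 in the inputs. All 13 were called in replicates 2 and 3, and 2 of them in replicate 1. The median ratio of replicate 2 to replicate 1 was 8.99, and that of replicate 3 to replicate 1 was 5.26. In the other 229 repeat sites these ratios were 1.29 and 1.25, and in unmasked sites 1.26 and 1.24. Replicate 1 called 174 of those 229. The ratios use the values that called the sites, so the calls partly set them. The track names put ChIP replicate 1 with Input replicate 1 and ChIP replicates 2 and 3 with Input replicate 2, so the replicate and this naming batch cannot be told apart.

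The tandem site with the highest ChIP signal, nearest Arid1b, held 30 GGAAT units on one strand. The site in Ano2 shown above read 1.00, 7.62 and 5.12, and the site nearest Nxph1 read 0.320, 7.58 and 3.38. Group 10, with 6 sites of which 2 held an ERE, also had low values in replicate 1 (0.441 to 2.71, median 1.04) beside medians of 4.79 and 3.84 in the other ChIP replicates. Its strongest member was nearest Kcnn2, a potassium channel gene, at 1.25, 8.61 and 7.78. Without the 13 tandem sites, 229 repeat sites remained, 71.2% of them with an ERE.

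Fewer of the repeat sites than of the unmasked sites lay close to genes, which is given here without a test. In the GENCODE vM21 annotation, 120 were intergenic (49.6%), 103 in introns (42.6%), 8 in promoters (3.31%), 7 at transcript ends (2.89%), 3 in noncoding exons, 1 in a UTR and 0 in coding exons. Unmasked sites were intergenic in 32.6%, intronic in 46.6% and in promoters in 10.2%. Masked tiles of the genome were intergenic in 62.4%, intronic in 32.2% and in promoters in 2.03%, and unmasked tiles in 45.2%, 42.1% and 4.27%. The median distance to the nearest start of a protein-coding gene was 33.3 kb, against 23.5 kb for unmasked sites. For tiles it was 69.8 kb if masked and 53.4 kb if unmasked, so masked sequence as such also lay farther from starts. Within 5 kb of a start lay 21 repeat sites (8.68%) and 20.4% of the unmasked sites. By chromosome, numbers ran from 5 on chromosome 19 to 23 on chromosome 1.

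The nearest protein-coding starts of the 242 sites belonged to 233 genes, which is 1.07% of 21728 annotated genes, while any site was nearest to 13.4%. Of the 233, 93 (39.9%) were also nearest to an unmasked site. A pair of repeat sites was nearest to each of 9 genes: Arid1b, Azin2, Gja1, Lekr1, Map4, Pcmtd1, Rab3gap1, Ralgps2 and Rtl4. Gja1 encodes connexin 43, the main gap junction protein of granulosa cells. Its 2 sites lay 107 kb and 73.9 kb downstream of the start, with ChIP signals of 3.76, 3.26 and 4.50 at the first and 3.49, 4.90 and 3.96 at the second, and had no relative among the other repeat sites. Near Rab3gap1, a regulator of Rab GTPases, the pair lay 77.7 kb and 77.2 kb downstream and both belonged to group 2. They read 7.99, 8.72 and 12.6, and 6.69, 8.32 and 10.2. Near Pcmtd1 both sites belonged to group 3, 561 kb and 564 kb away.

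Of 170 genes in 5 lists of ovarian function, 3 (1.76%) were nearest to a repeat site and 86 (50.6%) to any site, against 1.07% and 13.4% of all genes. The share at repeat sites was thus near that of all genes. The lists were drawn up with earlier results of these data known, so the shares of listed genes are not independent of the data. By list, the counts for a repeat site and for any site were 1 and 15 of 34 steroid and cholesterol genes, 1 and 20 of 39 genes of gonadotropin, TGF-beta and growth factor signalling, 0 and 21 of 33 nuclear receptor and cofactor genes, 1 and 17 of 26 granulosa transcription factor genes, and 0 and 13 of 38 genes of ovulation, vessels and matrix.

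The 3 genes were Lrp11, Bmpr1a and Sox4. The site in intron 1 of Lrp11, a member of the low-density lipoprotein receptor family, read 2.78, 2.34 and 3.24 in the ChIP replicates, against inputs of 0.536 and 0.490 (mean fold 5.43, SD 0.880). It held a GATA motif and no ERE. The site in intron 10 of Bmpr1a, a type I receptor for bone morphogenetic proteins, at chr14:34421191-34421390, read 1.59, 2.71 and 2.22 against 0.328 and 0.520 (mean fold 5.12, SD 1.32). It belonged to group 9, held a perfect ERE and was called in replicates 2 and 3. The site 40.2 kb downstream of the start of Sox4, an HMG-box transcription factor, read 1.21, 2.88 and 3.33 against 0.809 and 0.560 (mean fold 3.62, SD 1.63), belonged to group 1 and was likewise called in replicates 2 and 3. ChIP and input values did not overlap at any of the 3, with the smallest gap at Sox4. In the replicates that called a site this follows from the calling rule. Replicate 1 called neither the Bmpr1a nor the Sox4 site, and it read above both inputs at each. Lrp11 and Bmpr1a were nearest to no unmasked site, and Sox4 to 1.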

How the data were processed

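Mouse ovary ERβ ChIP-seq tracks were analysed, 3 ChIP replicates and 2 inputs, grouped by sample titles. The authors aligned 75-base single reads with STAR to mm10 with spliced alignment off, kept uniquely mapped reads and made the tracks with HOMER. Each deposited file held signal, a coverage value scaled by the authors to the same total in every library, so depth cannot be read from the tracks. Genome means were 0.362 to 0.370.

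Sites were called from mean signal in 200-bp windows at 10-bp steps (minimum 2; 4-fold over the mean of both inputs, floored at the genome mean; 4-fold over the surrounding 10 kb; merging within 200 bp; at least 2 of 3 replicates; chromosomes 1 to 19 and X). Of the inputs, each called against the other, 7 and 2 maxima passed. Masking was read from the lower case of the RefSeq GRCm38 sequence, and the program that made it is not given in the sources used here. Motifs were searched on both strands. Python 3.11.15, numpy 2.4.6, pandas 2.3.3 and blastn 2.17.0 were used, and the calls were tested on simulated data. Location followed GENCODE vM21 with promoters first. Replicate differences were tested by exact two-sided sign-flip permutation (smallest p 0.25), with the ChIP replicate as the unit, since sites are not replicates.

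The members, motifs and gene lists were chosen with earlier results of these data known. Genes are named for the 12 sites of highest mean fold found in all 3 replicates, for sites nearest to the listed genes, for the 5 sites on either side of the masking threshold and for the strongest site of each group of at least 5; other names were chosen after their values were seen. Alternatives changed the height, fold, inputs, masking, motif window and mismatches, and left out each library, related sites or tandem sites.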

Additional observations from a re-analysis of the deposited data

How the results depend on the processing

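The number of repeat sites, 242, was 100 with a height minimum of 4, 91 at 8-fold over input, 14 at a masked share of 100%, 150 in all 3 replicates and 61 with 1 site per group of related sites. Leaving out 1 library gave 160 to 254, with 160 without ChIP replicate 2 and 160 without ChIP replicate 3. Their share of all sites, 5.71%, was 4.32%, 0.330%, 5.15% and 1.5% with the height of 4, full masking, all 3 replicates and 1 site per group, and 4.95% to 5.99% with a library left out. The share with an ERE, 67.4%, was 57.1% with full masking, 71.3% in all 3 replicates, 60.7% in the central 100 bp, 36.4% and 4.96% with at most 1 and no mismatch, 52.5% with 1 site per group, and 65.7% to 71.2% with a library left out.

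The ERE difference of -2.03 percentage points between repeat and unmasked sites was -16.9 with 1 site per group, -12.2 at 8-fold and -12.2 with full masking. It changed sign to 2.37 with at most 1 mismatch and to 1.79 without tandem sites, and ran from -4.52 to 1.21 with a library left out; it was 0.0572 without ChIP replicate 2 and 1.21 without ChIP replicate 3. The held-out log2 fold difference of -0.08 was 0.02 with a height of 4 and kept its sign under 16 of 17 alternatives (-0.36 to 0.02 in all). The value for sites in all 3 replicates, -0.06, was not held out, since each measured library had also called the sites. The GATA difference of 10.3 points was -0.437 at 8-fold and kept its sign under the other 15 alternatives. The cause of these changes was not tested.

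Pairing ChIP and input by replicate number (replicate block, replicates 1 and 2, sites in both) gave 151 repeat sites, 5.04% of sites, 72.2% with an ERE, an ERE difference of 1.52 points, a held-out difference of -0.11 and a GATA difference of 5.92 points. The numbers are shared names only: nothing in the labels says that same-numbered samples came from the same mice, and 2 pairs cannot show it. Depth is not in the tracks, repeat copies without unique reads were not observed, and groups of 2 or 3 libraries were not tested for outliers.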
